A study of Mus musculus with 9 samples.

Results

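The apolipoprotein cluster Apoa1, Apoc3, Apoa4 and Apoa5 of mouse chromosome 9 was examined as the 100 kb window of chromosome 9 from 46.0 to 46.1 Mb (build mm9), which holds the 4 genes and their flanks by the definition used to choose it. Members were all peaks, called regions of enrichment, with their midpoint in this window: 52 of the 64078 peaks in 8 lists from chromatin immunoprecipitation and sequencing (ChIP-seq) of XBP1. The locus was chosen by its peak calls in these lists, so their number, spacing, width and score describe it and were not tested. All livers came from wild-type C57Bl6-J mice, 8 weeks old at surgery, and the antibody was anti-XBP1 M-186 throughout. The 5 unsilenced conditions were basal, partial hepatectomy (removal of most of the liver) at 6 h and at 48 h, and sham surgery at 6 h and at 48 h, in which the abdomen was opened and lobes were exposed. The 3 other livers, basal and 6 h and 48 h after hepatectomy, had received an adenovirus expressing a short hairpin RNA against XBP1 (shXBP1) 7 days earlier, with clodronate liposomes given 24 h before the virus. Whether control virus or liposomes were given to the mice with unsilenced liver, and how many mice made up a library, is not in the labels. Whole liver holds several cell types, and a peak does not say in which of them the site was occupied. Peak lists measure neither the level of XBP1 after silencing nor that of liver marker genes, so these labels were not checked.

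XBP1 is a transcription factor through which cells answer misfolded protein in the endoplasmic reticulum, made in active form when IRE1 splices its messenger RNA, and in liver it is also known for its part in lipid synthesis and lipoprotein secretion. Apoa1 encodes the main protein of high-density lipoprotein. Apoc3 encodes an inhibitor of triglyceride clearance, Apoa5 an activator of it, and Apoa4 a lipid-binding protein of triglyceride-rich particles and high-density lipoprotein. All 4 are secreted proteins expressed in liver. In the RefSeq gene table (GRCm38.p6) they stand in the order Apoa1, Apoc3, Apoa4, Apoa5, between the protein-coding genes Sik3, a kinase gene, and Zpr1, a zinc finger protein gene, followed by Bud13, which encodes a splicing factor. Peaks are in mm9, and no mm9 gene positions were used here, so no peak is assigned to a gene below.

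The sequences just upstream of the genes are shown because XBP1 and related factors are known to read elements with the core ACGT. The 250 bases before the annotated start are given 5′ to 3′ for 3 members from RefSeq (GRCm38.p6, plus strand, chr9:46228380-46228629 for Apoa1, chr9:46240594-46240843 for Apoa4 and chr9:46268358-46268607 for Apoa5). These positions are not comparable with the mm9 positions of the peaks. Capitals mark ACGT and any CCACGT (either strand) or CACGTG around it, which gave 1 stretch, in Apoa5.
Apoa1: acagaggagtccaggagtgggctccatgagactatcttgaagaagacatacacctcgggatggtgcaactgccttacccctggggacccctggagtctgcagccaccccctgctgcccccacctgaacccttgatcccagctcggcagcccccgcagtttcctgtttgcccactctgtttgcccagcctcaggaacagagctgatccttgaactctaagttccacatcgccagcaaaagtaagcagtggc
Apoa4: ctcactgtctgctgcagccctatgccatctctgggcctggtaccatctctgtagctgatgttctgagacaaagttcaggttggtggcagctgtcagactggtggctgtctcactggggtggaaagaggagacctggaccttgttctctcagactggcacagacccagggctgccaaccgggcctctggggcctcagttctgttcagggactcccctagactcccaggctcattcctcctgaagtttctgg
Apoa5: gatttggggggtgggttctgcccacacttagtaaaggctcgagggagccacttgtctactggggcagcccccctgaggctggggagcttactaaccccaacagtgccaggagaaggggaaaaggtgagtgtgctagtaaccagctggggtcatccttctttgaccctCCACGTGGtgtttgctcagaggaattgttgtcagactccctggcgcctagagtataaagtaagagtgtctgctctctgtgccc

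The Apoa5 sequence holds the palindrome CACGTG, whose first base lies 82 bases before the start, inside 2 overlapping copies of CCACGT on opposite strands. At the second annotated start of Apoa5 the same palindrome begins 107 bases upstream. CACGTG is also the core read by E-box factors, so the letters do not single out XBP1. With both strands searched, 1 of the 3 members held ACGT and 1 held CACGTG, against 29.6% and 6.86% of the 27025 genes with an entry in the promoter table. CCACGT was held by 1 of the 3 and CCACG by 1, again Apoa5, against 7.84% and 31.0% of all genes. Neither TGACGT nor CCAAT was found in the 3 windows, against 7.29% and 37.5% of all genes. The ER stress element, CCAAT with CCACG 9 bases after it, was found in none of the 3 windows and in 0.13% of all genes. Among 24 other genes of lipoprotein assembly, transport and clearance, 16 had an entry. ACGT was present in 4 of these 16: Mttp, which loads lipid onto nascent particles, Apoc2, the cofactor of lipoprotein lipase, Creb3l3, a membrane-bound factor of the same response family, and Abca1, the cholesterol exporter. CACGTG was present in 1 of the 16, Abca1. CCACG was present in 7 of the 16, CCAAT in 7, CCACGT in 2, TGACGT in 1 and the ER stress element in none.

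Many XBP1 peaks were called in the window 6 h after either operation, and basal liver had none there. At 6 h there were 17 peaks in the hepatectomy list and 22 in the sham list, and at 48 h there were 7 and 3. With XBP1 silenced there were 3 peaks at 6 h, none at 48 h and none in basal liver. There was 1 library per condition, so no difference between conditions can be set against a spread between animals. The 6 h lists of unsilenced liver were thus the high ones. The 3 lists without a peak here were also the 3 shortest lists of the series. Basal liver had 2482 peaks in all, silenced basal liver 177 and silenced 48 h liver 102.

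**Figure D1:**
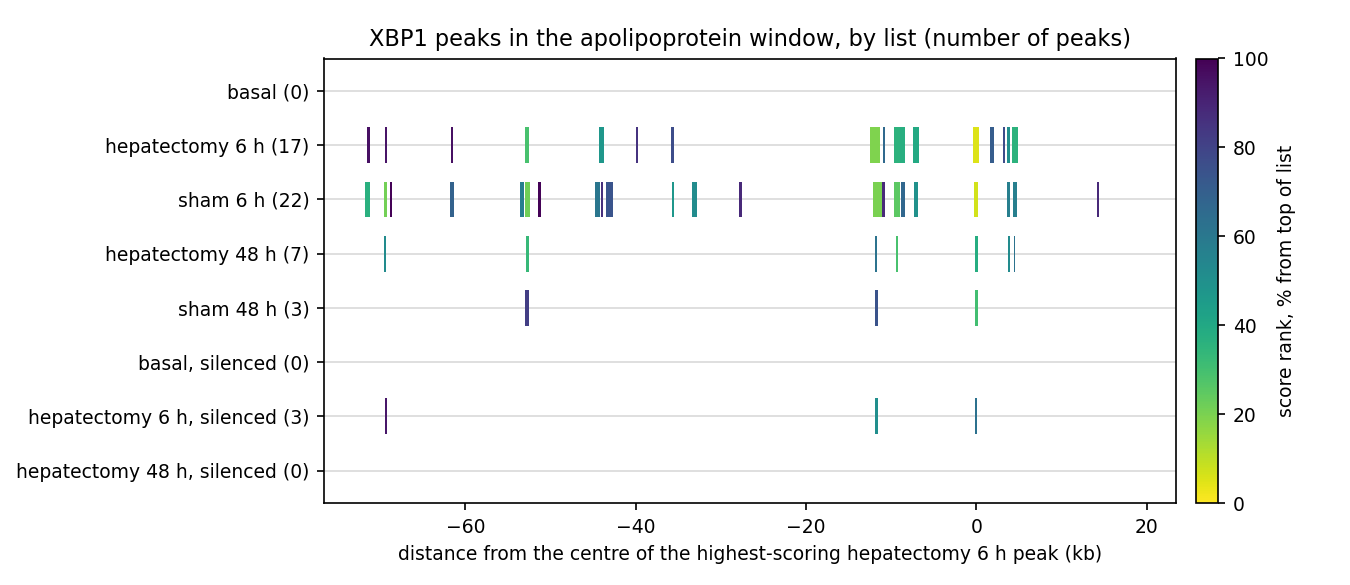
Peaks of the 8 lists across the window, drawn to scale as distance in kb from the centre of the highest-scoring peak 6 h after hepatectomy; each bar is 1 peak and its colour the rank of its score as a percentage from the top of its own list. The 17 and 22 peaks of both 6 h lists fall on either side of a long gap, and the 3 peaks of the silenced 6 h list coincide with peaks of the unsilenced one.

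By rank among all windows, this density was near the top in the unsilenced 6 h lists. Windows of 100 kb on the same grid numbered 9315 with a peak in any list. Of these, 6 (0.0644%) held at least 17 peaks 6 h after hepatectomy, where the fullest window held 35. After sham 2 windows (0.0215%) held at least 22 peaks, this one and that with the sham list's maximum of 23. At 48 h, 9 windows (0.0966%) held at least 7 hepatectomy peaks and 267 (2.87%) held at least 3 sham peaks. For the silenced 6 h list, 209 windows (2.24%) held at least 3 peaks. These percentages place the locus among all windows and test nothing, since its density led to its choice.

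Relative to the length of each list, the locus took a similar share of the peaks wherever it had any. The share was 0.0770% of the peaks 6 h after hepatectomy (95% Clopper-Pearson interval 0.0449 to 0.123%) and 0.0953% 6 h after sham (0.0597 to 0.144%). It was 0.0971% 48 h after hepatectomy (0.0390 to 0.200%), 0.0649% 48 h after sham (0.0134 to 0.190%) and 0.0694% in the silenced 6 h list (0.0143 to 0.203%). For the 2482 basal peaks the interval around 0 reached 0.149%, which includes each of those shares. Intervals here and below cover counting error only. They take peaks as independent, although peaks of the locus lay close together. Whether an interval includes another share tests nothing, since the locus was chosen by its peak calls. When each list longer than the basal one was reduced to its 2482 highest-scoring peaks, the length of the basal list, the window held 1 peak in each 6 h list, 2 peaks 48 h after hepatectomy, 1 peak 48 h after sham and 1 peak in the silenced 6 h list. The sources used here give no read numbers per library, so a basal library with fewer reads and a basal liver with fewer sites cannot be told apart. Of the 9315 windows with a peak in any list, 77.9% had no basal peak. Occupied windows had a median of 2 peaks in each 6 h list, so that share does not speak for windows as dense as this one. Only 2 windows, this one included, held at least 17 hepatectomy and 22 sham peaks at 6 h, and 0 of them had a basal peak. The nearest basal peaks were 363 kb before the window and 2189 kb after it.

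Peaks within the locus lay close together. The median distance between neighbouring midpoints was 1950 bp 6 h after hepatectomy and 2140 bp 6 h after sham, against 20438 bp and 19029 bp over the whole lists. Neighbours within 2 kb made up 8 of 16 pairs after hepatectomy and 10 of 21 after sham, against 14.9% and 14.8% of the pairs of each list. The largest distance was 23832 bp after hepatectomy and 16077 bp after sham. Widths at 6 h were ordinary in the unsilenced lists. The median was 397 bp after hepatectomy (259 to 1128 bp) and 427 bp after sham (249 to 977 bp), where the lists had 429 bp and 412 bp. At 48 h it was 224 bp after hepatectomy (205 to 338 bp), against 290 bp over the list. After sham it was 374 bp (331 to 473 bp), against 379 bp. In the silenced 6 h list it was 285 bp (258 to 339 bp), against 333 bp.

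No peak crossed an edge of the window. The first peak inside began 4808 bp from its start and the last ended 8958 bp before its end, both in the sham 6 h list. Just outside, the 6 h hepatectomy list had a peak 42.2 kb before the window and another, with a score of 13.84, 6.52 kb after it. The sham 6 h list had its nearest peaks 42.1 kb before and 178 kb after.

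By score, the 6 h peaks of unsilenced liver ranged from high to low in their lists, with median ranks below the middle. Scores are those of the authors' peak caller, read here as −log10 of a p-value, and were ranked within each list only. In the 6 h hepatectomy list 8 of the 17 peaks stood in the upper 50% by score and 1 in the top 10%, with a median rank 50.8% from the top. In the sham 6 h list 8 of 22 stood in the upper 50% and 1 in the top 10%, with a median of 57.3%. At 48 h none of the 7 hepatectomy peaks and none of the 3 sham peaks was in the top 10% of its list. The same held for the 3 peaks of the silenced 6 h list. Sets of so few peaks would often hold none from a top 10%.

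Merged by overlap, the 52 peaks formed 24 sites. Of these, 14 had a peak in both 6 h lists, 7 of the 14 in no other list. Sham 6 h alone accounted for 7 sites and hepatectomy 6 h alone for 3. A 48 h peak was present at 7 sites, all of which had a peak in both 6 h lists. Sites were merged in the window only, so no share over the whole lists stands beside these counts. Counted by peak at 6 h, 82.4% of hepatectomy and 68.2% of sham peaks had a counterpart, against 76.9% and 74.1% of the lists. Over the 48 h hepatectomy list, 91.0% of peaks overlapped a hepatectomy 6 h peak and 93.8% a sham 6 h peak. The longest stretch between sites, 15035 bp, divided them into 13 sites at 46004809 to 46049134 and 11 sites at 46064170 to 46091042. The second group held 5 of the 7 sites with a 48 h peak and 2 of the 3 with a peak after silencing.

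The strongest site lay in the second group, at chr9:46076210-46076934, and was found in 5 lists. Its score was 111.68 6 h after hepatectomy, rank 1167 of 22071 peaks, and 55.96 6 h after sham, rank 1559 of 23087. At 48 h it scored 13.83 after hepatectomy (rank 2747 of 7212) and 20.75 after sham (rank 1399 of 4622). With XBP1 silenced, 6 h after hepatectomy, it scored 12.19 (rank 2705 of 4325). The site was high in both 6 h lists, where it led the window, led the 3 sham peaks at 48 h, and stood in the lower part of the silenced list. The 5 midpoints fell within 48.5 bp of each other, although the peaks ranged from 258 to 725 bp in width.

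A second site found in 5 lists spanned chr9:46064170-46065494. It scored 43.20 6 h after hepatectomy (rank 4283) and 30.04 6 h after sham (rank 4664), second in the window in both. At 48 h its score was 10.42 after hepatectomy (rank 4461) and 10.52 after sham (rank 3442). In the silenced 6 h list it scored 14.21 (rank 2188), the highest of the 3 peaks there. Its peaks were the widest of the locus at 6 h, 1128 bp after hepatectomy and 977 bp after sham, and 220 bp, 331 bp and 339 bp in the other lists, and the midpoints spread over 272.5 bp.

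The site at chr9:46023574-46024235 was found in all 4 lists of operated, unsilenced liver and in no silenced one. It scored 30.84 6 h after hepatectomy (rank 6381), 28.73 6 h after sham (rank 5013), 15.01 48 h after hepatectomy (rank 2380) and 9.52 48 h after sham (rank 3787). It was the highest-scoring peak of the 6 h hepatectomy list in the window without a counterpart after silencing. The site at chr9:46007016-46007431 differed more between the 6 h lists, with a score of 8.41 after hepatectomy (rank 20943) and 29.08 after sham (rank 4936), the third of the window. It scored 11.53 48 h after hepatectomy (rank 3770) and 8.01 in the silenced 6 h list (rank 4068), and had no peak 48 h after sham. In the 48 h hepatectomy list the highest score of the window, 16.22 (rank 2086), belonged to the site at chr9:46066954-46067604, which scored 25.66 6 h after hepatectomy (rank 7857) and 26.13 6 h after sham (rank 5815).

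**Figure D2:**
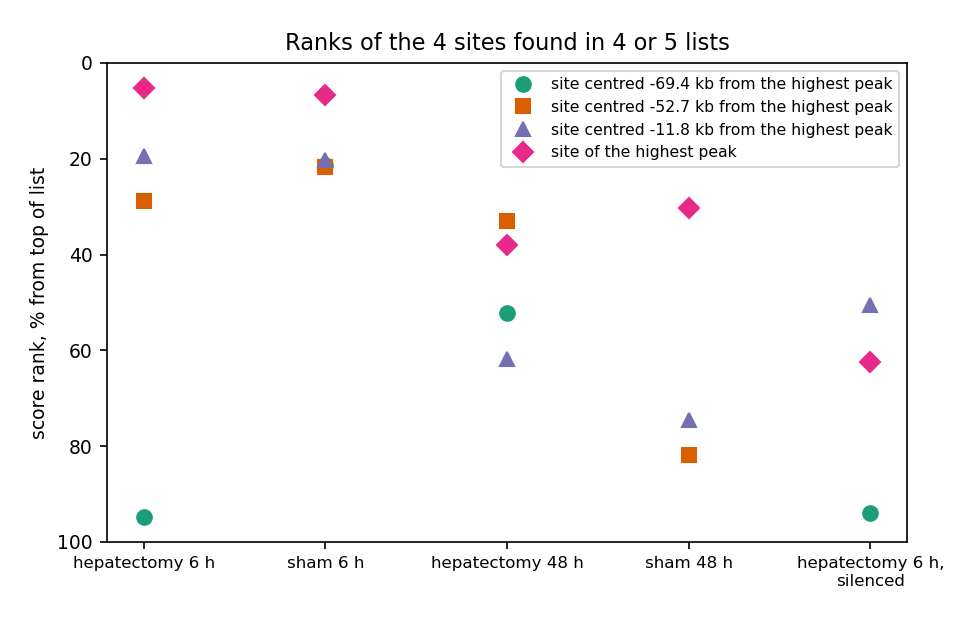
Rank of the score as a percentage from the top of the list, for the 4 sites of the window with a peak in 4 or 5 lists; each point is 1 peak of 1 library, and a missing point means no peak. The site of the highest peak stands at 5.29% and 6.75% in the 6 h lists and at 62.5% in the silenced list.

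Each silenced liver was set beside the unsilenced one taken at the same time. Of the 17 hepatectomy peaks at 6 h, 3 were also called after silencing (17.6%, 3.80 to 43.4%), against 18.9% of all peaks of that list. With the list divided into 10% bands by score and the bands weighted as in the window, the share was 13.6%, and the interval of the locus includes both values. The kept peaks were the strongest 2, at 46076210 and 46064170, and the weak one at 46007112, in the lowest band, of which 0.77% was kept. All 3 silenced peaks lay on unsilenced ones, as did 98.2% of that list.

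The strongest site kept a peak but held a low rank after silencing. It stood 5.29% from the top of the unsilenced list and 62.5% from the top of the silenced one. For the 1935 kept peaks of its band, the highest-scoring 10%, the median rank in the silenced list was 24.5% from the top, and 85.9% of them ranked above this site. The second site moved from 19.4% to 50.6%, near the median of 56.7% for its band. The site at 46007112 stood at 94.9% and 94.1%. These ranks describe 2 libraries, and the strongest site was singled out after its ranks were seen.

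At 48 h, none of the 7 hepatectomy peaks was also called after silencing (interval 0 to 41.0%), against 0.915% of the list. With the silenced 6 h library in its place the share was 3 of 7 (42.9%), against 42.6% of the list. The result at 48 h thus rests on a silenced list of 102 peaks. Basal liver, where 4.75% of all peaks were also called after silencing, had no peak in the window to compare.

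Hepatectomy and sham gave overlapping sets of peaks at 6 h. A sham peak lay on 14 of the 17 hepatectomy peaks (82.4%, 56.6 to 96.2%), against 76.9% of the list, and a hepatectomy peak on 15 of the 22 sham peaks (68.2%, 45.1 to 86.1%), against 74.1%. Both shares were close to those of the whole lists. The 3 hepatectomy peaks without a counterpart, at 46036656, 46078242 and 46079720, had scores from 10.25 to 12.77. The 7 sham peaks without one had scores from 6.17 to 15.26, and 6 of them stood in the first group of sites, at 46007719, 46022992, 46025165, 46033166, 46043270 and 46048724. The seventh, at 46090794, was the last site of the window.

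**Figure D3:**
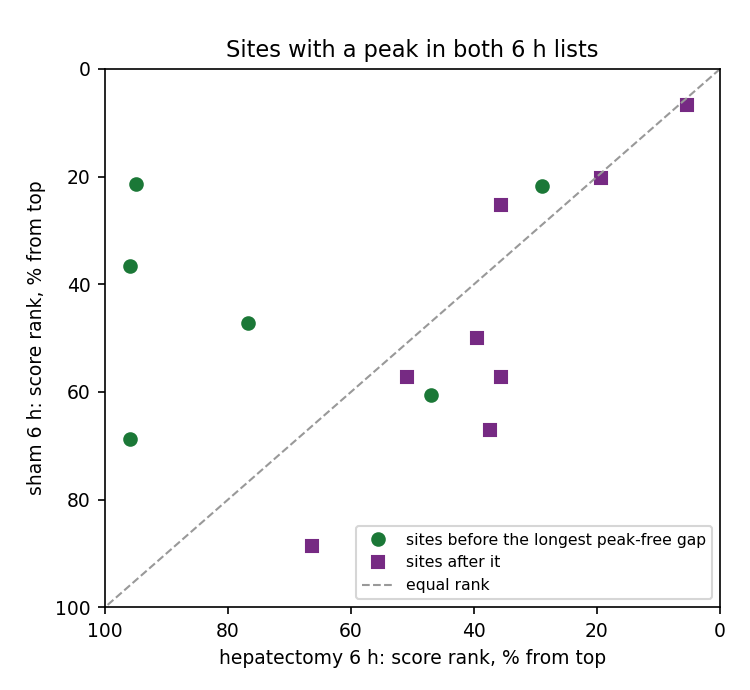
Ranks of the 14 sites with a peak in both 6 h lists, as a percentage from the top of the hepatectomy list (horizontal) and of the sham list (vertical); each point is 1 site and the dashed line marks equal rank. Of the 6 sites before the long gap 5 lie on the sham side of the line, and of the 8 sites after it 1 does.

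Ranks in the 6 h lists differed along the locus. Of the 6 shared sites before the long gap, 5 ranked higher in the sham list than in the hepatectomy list, and of the 8 after it, 1 did. Over both whole lists 54.1% of the 16979 hepatectomy peaks with a counterpart ranked higher in sham. The site at 46007016 moved from 94.9% from the top after hepatectomy to 21.4% after sham. That at 46004809 moved from 95.9% to 36.7%. In the other direction the site at 46067679 stood at 37.5% after hepatectomy and 67.1% after sham. Over the lists, hepatectomy peaks of the lowest 10% band with a counterpart had a median sham rank of 68.8%. The split along the locus was noticed in the data and was not tested.

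At 48 h the hepatectomy list held all 3 sham sites and 4 more. A sham peak lay on 3 of its 7 peaks (42.9%, 9.90 to 81.6%), against 47.1% of the list. The sham peaks at 46023641, 46064689 and 46076434 all overlapped a hepatectomy peak, against 72.5% of the sham list. The 4 sites with a peak only after hepatectomy at this time began at 46007016, 46066954, 46080147 and 46080800. Like the other 3, these had a peak in the sham list at 6 h, as did 93.8% of all 48 h hepatectomy peaks.

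Along the time after surgery the 48 h peaks were a subset of the 6 h sites. All 7 hepatectomy peaks at 48 h overlapped a 6 h hepatectomy peak (interval 59.0 to 100%), against 91.0% of the list, and all 3 sham peaks overlapped a 6 h sham peak, against 97.7%. Of the 17 hepatectomy peaks at 6 h, 7 (41.2%, 18.4 to 67.1%) were found at 48 h, against 28.9% of the list and 23.7% at matching score. Of the 22 sham peaks at 6 h, 3 (13.6%, 2.91 to 34.9%) were found at 48 h, against 19.4% of the list and 12.4% at matching score. No 6 h peak of either operation overlapped a basal peak, against 10.9% of the hepatectomy list and 10.5% of the sham list. Each interval includes the share of the whole list. With a mutual overlap of 50% or more required, 3 of the 7 peaks at 48 h matched a 6 h hepatectomy peak.

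Among the 14 sites with a peak in both 6 h lists, those with a 48 h peak had higher median ranks at 6 h. Over the whole hepatectomy list the share of 6 h peaks found at 48 h likewise went from 5.30% in the lowest 10% band by score to 88.9% in the highest. The 7 sites with a 48 h peak had a median rank 35.6% from the top of the hepatectomy list at 6 h (5.29 to 94.9%), and the 7 others of the 14 had 66.3% (37.5 to 95.9%). In the sham list the medians were 21.7% (6.75 to 57.3%) and 60.6% (36.7 to 88.6%). The ranges overlapped in both lists. Peaks at 48 h were narrower and mostly nested. At that time 6 of the 7 hepatectomy peaks lay wholly inside the 6 h peak they overlapped, against 83.7% of such peaks over the list, and their median width was 40.7% of it, against 53.7%. All 3 sham peaks lay inside their 6 h sham peak, against 75.9% over the list, with a median width of 70.6% of it, against 65.0%.

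**Figure D4:**
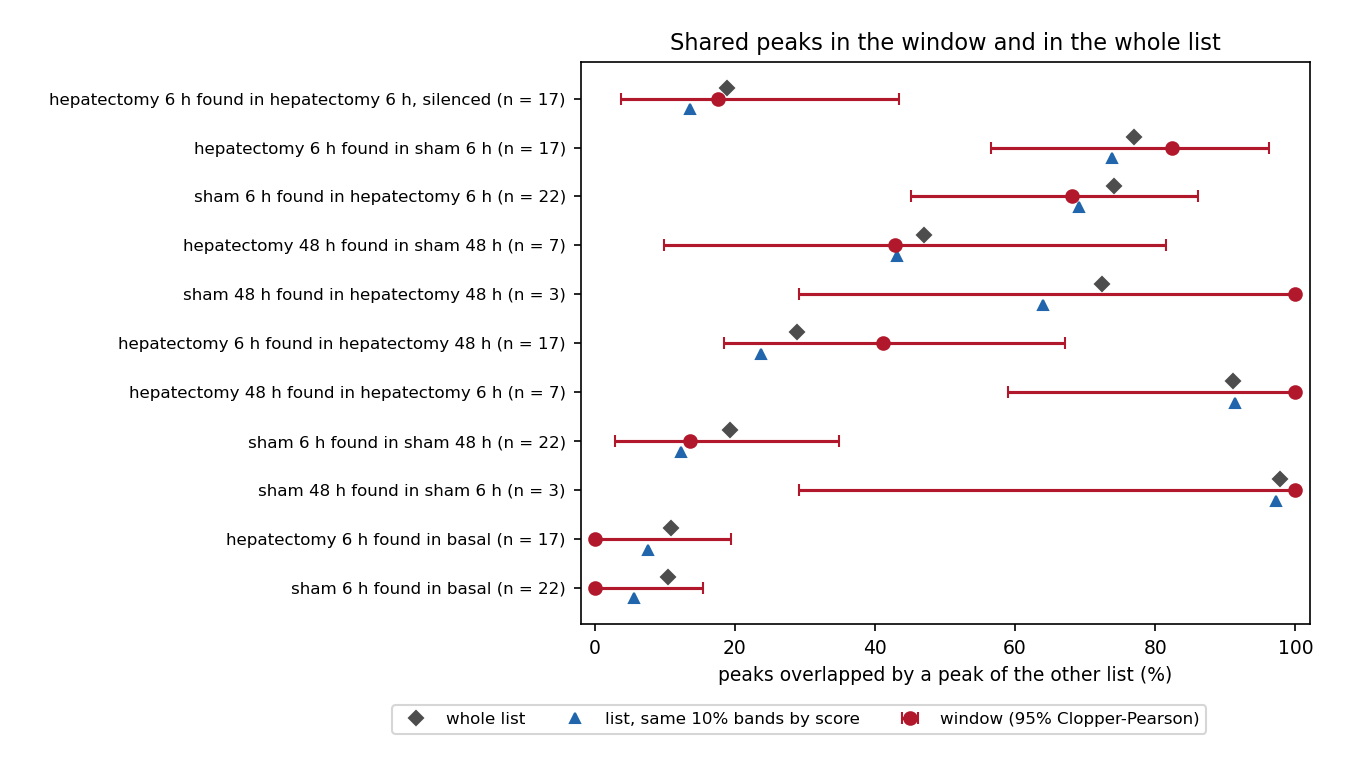
Percentage of window peaks of 1 list overlapped by a peak of another (circles, with 95% Clopper-Pearson intervals for counting error), beside the percentage over the whole list (diamonds) and over the list at matching 10% bands of score (triangles); n is the number of window peaks. Every diamond lies within the interval of its circle. Circles range from 0% for 6 h peaks found in basal liver to 100% for 48 h peaks found at 6 h, with 17.6% kept after silencing at 6 h.

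Other windows had a like pattern of peak numbers. By Euclidean distance of log2(peak number + 1) over the 8 lists, the nearest was chr2:164200001-164300000 (distance 0.67). At 6 h it had 16 hepatectomy and 15 sham peaks, at 48 h 5 and 3, with 3 peaks in the silenced 6 h list and none in basal liver. The next were chr5:136100001-136200000 (distance 1.01) and chr11:120300001-120400000 (distance 1.03), with 15 peaks and 11 peaks 6 h after hepatectomy. Neither had a basal peak. Like the apolipoprotein window, these 3 had peaks in the silenced list at 6 h and in no other silenced list. They were picked for like peak numbers over the 8 lists, so this likeness, lists without a peak included, follows from the choice.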

How the data were processed

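XBP1 ChIP-seq peak lists of 8 liver libraries were used, 1 library per condition; the series' input DNA was not analysed here. Chromatin was sonicated, per the labels' protocols, to 300 bp on average. The submitters' processing notes name Bowtie2, MACS 1.4.2 and build mm9; settings and the use of the input are not given in them or in the labels. Peaks were called per library, since each list belongs to 1 library. The score deposited by the authors was read as −log10 of a p-value. Of the scores of a list, 27.1% to 63.3% equalled, to 0.01, the steps of a Poisson tail for 1 background mean. On a scale 10 times as fine 5.25% to 19.8% did. The mean was the best match of many tried per list. Steps on the finer scale lie further apart in score, so fewer matches were to be had there. The reading is thus an assumption, on which ranks within a list do not depend. Scores were ranked within lists only.

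Peaks with their midpoint in the window were taken, positions were written 1-based, and peaks were matched by an overlap of at least 1 bp. Shares have 95% Clopper-Pearson intervals, and were also computed in 10% bands of each list by score, weighted as the window's peaks. Windows of 100 kb with a peak in any list served as background. Python 3.11.15, NumPy 2.4.6, pandas 2.3.3, SciPy 1.17.1 and matplotlib 3.10.9 were used, and matching was tested on simulated lists. The simulated peaks had equal width, lay well apart and had at most 1 counterpart, so the choice among several overlaps was not tested. No test was run, since each condition has 1 library and the locus was chosen by its peaks. Motifs were searched on both strands of the 250 bases before each annotated start (RefSeq, GRCm38.p6). Because more than 20 sites were found, those named are the 3 highest-scoring per list and the highest-scoring 6 h hepatectomy peak without a silenced counterpart; others given by position were chosen after their values were seen. The members and lists were chosen with earlier results of these data known.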

Additional observations from a re-analysis of the deposited data

Results flagged for a closer look

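In the apolipoprotein window hepatectomy gave fewer XBP1 peaks than sham at 6 h and more at 48 h. The ratio of hepatectomy to sham peaks was 0.773 at 6 h (17 and 22 peaks) and 2.33 at 48 h (7 and 3 peaks), with 1 library per condition. It is given here because the ratios lie on opposite sides of 1, and whether the times differ was not tested. The whole lists had ratios of 0.956 and 1.56, on the same sides. With a score of at least 10 the window's ratios were 0.875 and 3.5. With lists cut to their top 2482 peaks there was 1 hepatectomy and 1 sham peak at 6 h, so no difference was left, and 2 and 1 at 48 h. Of all 100 kb windows, 9.79% had fewer hepatectomy than sham peaks at 6 h and more at 48 h.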

How the results depend on the processing

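Of 70 alternative values for 21 results, 62 stayed close to the reported value: within 1.5 times for a number of peaks or sites, within its interval for a share. Many of the 62 could hardly move: counts or shares of 0 set against 0, and shares with the wide intervals of few peaks. With a mutual overlap of 50%, 1 of 17 hepatectomy peaks at 6 h was kept after silencing (5.88%). That share counts as close, although 3 of 17 were kept with 1 bp. The alternatives were any overlap with the window, a window wider by 50 kb on each side, merging of peaks within 500 bp, a score of at least 10, matching by midpoints up to 250 bp apart or by a mutual overlap of 50%, the silenced 6 h list for other states, lists of equal length, and peaks resized to 500 bp. The 8 others were as follows. Equal numbers of highest-scoring peaks (2482) left 1 peak 6 h after hepatectomy, 1 peak 6 h after sham, 2 peaks 48 h after hepatectomy, 1 peak 48 h after sham and 1 peak in the silenced 6 h list. These counts are too small to order the lists, and shortening a list also raises its lowest score; the cause was not tested. With the silenced 6 h list, 42.9% of the 48 h hepatectomy peaks had a counterpart. A mutual overlap of 50% lowered the share of 6 h hepatectomy peaks found at 48 h to 17.6% and the reverse share to 42.9%; the narrower 48 h peaks lower both by construction. Basal liver has no peaks here, so its share kept after silencing could not be computed. No paired test of silenced with unsilenced or hepatectomy with sham libraries was run, because the locus was chosen by its peak numbers.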

Other observations

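In the 100 kb before it the 6 h lists had 6 peaks (hepatectomy) and 2 peaks (sham), and in the 100 kb after it 1 peak and none; occupied windows of that size had a median of 2 peaks in both lists. Neither flank held a peak in the other 6 lists. After the window the nearest peak lay 2188 kb away 48 h after hepatectomy, 2189 kb away 48 h after sham and 2693 kb away in the silenced 6 h list.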
